A study of Mus musculus with 39 samples.

Results

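The report concerns 10 mouse genes: Ogt and Oga, the enzymes that put O-GlcNAc on proteins and take it off, the kinase genes Clk1 and Clk4, and the RNA-binding protein genes Srsf5, Srsf7, Rbm39, Luc7l3, Son and Matr3. They were found by Ensembl identifier among the 55357 genes of each of the lung and colon tables, and all 10 were present in both. All 10 also passed the filter on low values, which left 15978 genes tested in lung and 15001 in colon. The 10 were chosen by function, the RNA-binding ones as genes often held with retained introns. Expression values of these samples were already known, and which comparison led to the choice is not recorded. Ogt and Matr3 were among the few genes called in the colon of knockout mice with pancreatitis, so the values of that comparison, and of those that share its libraries, are given as a description, and their p-values as the place of each gene in the fit over all genes.

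The study sequenced lung and colon RNA of Cd177 knockout (KO) and wild-type (WT) mice, with acute pancreatitis (AP) or after a sham operation. CD177 is a surface glycoprotein of neutrophils. All mice had the C57BL/6N background per the labels. The groups were KO AP, KO sham, WT AP and WT sham in each tissue, with 5 libraries each except colon KO AP, which had 4, and 39 libraries in all. The way AP was induced, the time of sampling, the age of the mice and the construction of the KO allele are not stated in the labels. Neither is whether each library came from its own animal, so p-values measure the spread between libraries, which may be technical.

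OGT attaches a single sugar, O-GlcNAc, to serine and threonine residues of nuclear and cytosolic proteins, and OGA removes it. CLK kinases phosphorylate SR proteins, splicing factors rich in arginine and serine, and the SR proteins, together with factors such as LUC7L3, RBM39 and SON, act on the choice of splice sites. Detained introns are introns that stay in otherwise finished polyadenylated transcripts, which remain in the nucleus until they are spliced or degraded. Transcripts of Ogt, of Clk1 and Clk4 and of many splicing factor genes are known to carry them. The deposited values are 1 number per gene, as FPKM, read fragments scaled to the length of the transcript and the total of the library, so spliced and intron-holding transcripts were not separated.

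The annotation itself lists intron-holding transcripts for all 10 genes. In GENCODE M21, Clk1, Clk4 and Rbm39 each had 7 transcripts classed as retained intron, Matr3 had 5, Ogt, Srsf5 and Srsf7 had 3 each, and Oga, Luc7l3 and Son had 2 each. Among the protein-coding genes tested, 35% in lung and 35.9% in colon had 2 or more such transcripts. Retained introns were part of the choice of the genes, so nothing is read from this comparison. Exons of 4 of the 10 genes overlap exons of other annotated genes: Oga with Gm15491 and Son with Donson on the opposite strand, Clk4 with Gm25082 on the same strand, and Matr3 with Gm28285 on the same strand and AC121821.3 on the opposite one. The labels do not say whether the libraries kept strand, so reads of these overlapping stretches cannot be assigned to 1 gene.

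The junctions below belong to introns that an annotated transcript of these genes keeps, and are shown because a gene-level FPKM counts reads on both sides of them whether or not the intron was removed. Clk1 and Clk4 are paralogs and keep the introns on both sides of their exon 4, so each is printed beside its counterpart. Sequences are from GENCODE M21 transcripts on GRCm38, and capitals mark the first 2 bases of the intron at its 5′ end (GT).
Clk1 intron 3 5′ end, chr1:58421061-58421094, minus strand: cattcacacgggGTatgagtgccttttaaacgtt
Clk4 intron 3 5′ end, chr11:51272011-51272044, plus strand: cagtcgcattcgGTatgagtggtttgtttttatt
Clk1 intron 4 5′ end, chr1:58420099-58420132, minus strand: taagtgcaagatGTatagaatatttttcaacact
Clk4 intron 4 5′ end, chr11:51273157-51273190, plus strand: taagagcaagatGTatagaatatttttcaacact
Srsf5 intron 5 5′ end, chr12:80947854-80947887, plus strand: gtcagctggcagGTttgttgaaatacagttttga
Srsf7 intron 3 5′ end, chr17:80205240-80205273, minus strand: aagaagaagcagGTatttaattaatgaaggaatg
Oga intron 3 5′ end, chr19:45778565-45778598, minus strand: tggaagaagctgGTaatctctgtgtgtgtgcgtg

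The 5′ ends of intron 4 in Clk1 and Clk4 were identical at 33 of 34 bases, the last 29 of them in 1 run. At the 5′ ends of intron 3 the pair shared 21 of 34 bases. Intron 4 is 387 bases long in Clk1 and 391 in Clk4. Only a read that matched both genes over its whole length could have been counted for either, and whether any did was not examined.

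The libraries differed by genotype before any of the 10 genes is considered. Read totals recovered from the FPKM steps were 77.0 to 95.4 M reads in KO lung and 57.9 to 71.2 M in WT lung, and 77.7 to 98.6 M in KO colon and 55.6 to 78.3 M in WT colon. KO and WT libraries were separated along the first principal component in both tissues, a component with 58.2% of the lung variance and 37.9% of that in colon. Cd177 was listed at 0 FPKM in every KO library, against 1.31 to 4.18 FPKM in WT lung and 38.5 to 76.4 FPKM in WT colon. Lung markers such as Sftpc and Ager summed to at least 37786.5 FPKM in every lung library and at most 3.1 FPKM in colon, and colon markers to at least 3270.5 FPKM in every colon library and at most 34.6 FPKM in lung. One library stood apart from its own group in each of 3 groups: replicate 3 of lung KO AP, replicate 4 of lung WT AP and replicate 2 of colon WT sham. Where leaving them out changed the call of one of the 10 genes, the value without them is given beside it, an alternative chosen after seeing the data.

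In colon, the KO mice with AP had the highest group mean of all 4 colon groups for 9 of the 10 genes, Srsf7 being the exception. The genes were chosen with such values known, and the share of all genes with this order was not counted, so nothing is read from that count. Ogt showed the widest gap: it averaged 53.3 ± 14.6 FPKM in KO AP colon (SD, n = 4), 18.5 ± 4.62 FPKM in KO sham colon, 32.8 ± 6.48 FPKM in WT AP colon and 33.9 ± 8.66 FPKM in WT sham colon (SD, n = 5 each). Levels of Matr3, Clk1, Clk4 and Luc7l3 were called higher in KO than in WT mice with AP, beside 7.37% of all colon genes called higher and 10.9% lower. None of these calls remained with FPKM scaled to the sum of each library. In lung, where 55.8% of all genes tested differed between the genotypes with AP and 58.8% after sham, Clk4 and Srsf7 were higher in KO than in WT with AP and after sham, and Matr3 and Son were lower in KO after sham. None of the 10 was called between AP and sham in the lung of either genotype or in the colon of WT mice.

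**Figure D1:**
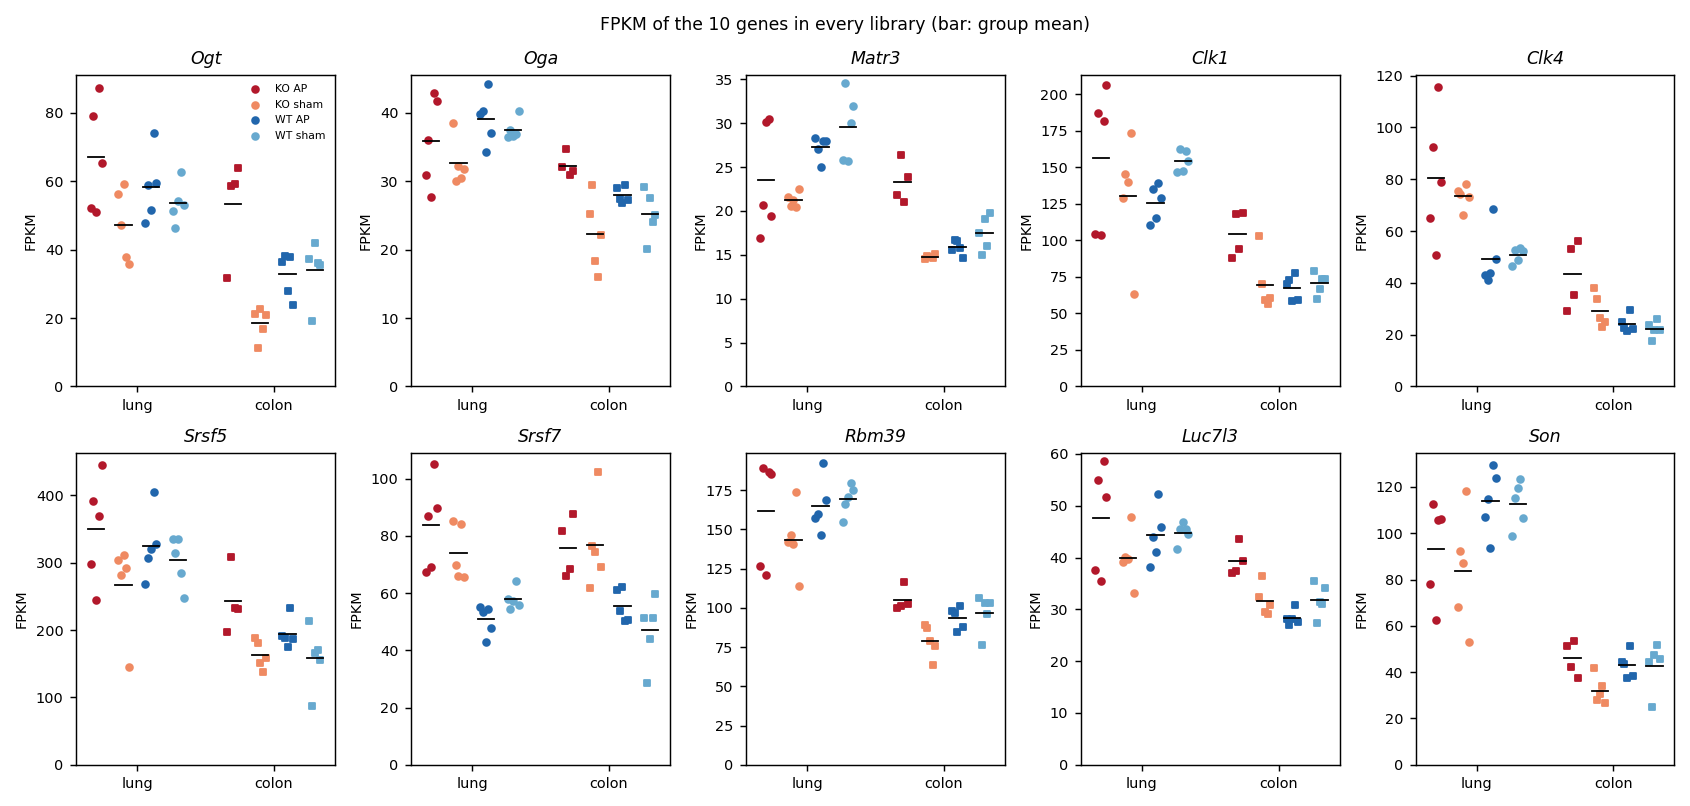
FPKM (y axis, from 0) of each of the 10 genes in every library, lung as circles and colon as squares, with the groups KO AP, KO sham, WT AP and WT sham from left to right in each tissue and a bar at each group mean. In colon the 4 KO AP libraries of Matr3, at 21.0 to 26.4 FPKM, lie above every other colon library, and Ogt has 3 KO AP libraries at 58.5 to 64.0 FPKM and 1 at 31.7 FPKM.

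Ogt encodes the only enzyme known to add O-GlcNAc to nuclear and cytosolic proteins of mammals. In colon its levels were 31.7, 58.5, 59.1 and 64.0 FPKM in KO AP mice, against 21.2, 11.3, 22.7, 16.7 and 20.8 FPKM in KO sham mice. Every KO AP library lay above every KO sham library, and replicate 1 was far below the other KO AP libraries. In WT colon Ogt was at 36.3, 38.2, 28.1, 37.7 and 23.9 FPKM with AP, against 37.2, 19.1, 41.8, 36.1 and 35.4 FPKM after sham, and these groups overlapped. The difference between AP and sham was 1.46 ± 0.25 in KO (log2(FPKM + 1) ± SE), a ratio of mean FPKM of 2.88, and -0.02 ± 0.23 in WT. The difference between these responses was 1.49 ± 0.34, with a limma adjusted p of 0.107.

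The KO minus WT difference of colon Ogt was negative after sham and positive in AP. It fell in KO sham against WT sham mice, by 0.83 ± 0.23 on the log2 scale (limma adjusted p = 0.0128), although the WT sham library at 19.1 FPKM lay inside the KO sham range. Without that library, replicate 2 of WT sham, the difference was -1.02 (limma adjusted p = 0.00224). With a transcript length trend taken out of each library it was -0.59 (limma adjusted p = 0.0579), which ended the call. In AP the KO minus WT difference was 0.66 ± 0.25 (limma adjusted p = 0.0743), with the KO replicate at 31.7 FPKM inside the WT range, and its adjusted p was 0.0399 without the library of WT sham that stood apart.

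In lung Ogt was at 52.2, 79.0, 51.1, 87.4 and 65.4 FPKM in KO AP mice, against 56.3, 47.3, 59.3, 37.9 and 35.8 FPKM in KO sham mice. Of these 10 libraries the highest 3 were KO AP ones, and the groups overlapped. The WT AP libraries ranged from 47.9 to 74.3 FPKM and the WT sham libraries from 46.3 to 62.6 FPKM. The AP minus sham difference was 0.49 ± 0.17 in KO lung (limma adjusted p = 0.233) and 0.12 ± 0.17 in WT lung. The KO minus WT difference in lung was not called as fitted. It was called at 0.51 with AP with the transcript length trend removed (limma adjusted p = 0.017). As TPM it was called at -0.47 after sham (limma adjusted p = 0.041).

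Oga encodes the enzyme that removes O-GlcNAc. In colon it was at 32.0, 34.7, 30.9 and 31.4 FPKM in KO AP mice, against 25.3, 29.4, 18.3, 16.0 and 22.2 FPKM in KO sham mice. The groups did not overlap, and the KO AP libraries were also all above the WT AP range of 26.7 to 29.4 FPKM. The difference between AP and sham was 0.55 ± 0.14 in KO and 0.15 ± 0.14 in WT. In lung the KO AP libraries ranged from 27.7 to 42.8 FPKM, KO sham from 30.1 to 38.5, WT AP from 34.2 to 44.2 and WT sham from 36.5 to 40.2, and none of the 4 comparisons called Oga as fitted. With FPKM scaled to the sum of each library Oga was called lower in KO lung. The difference was -0.34 with AP and -0.48 after sham (limma adjusted p = 0.0328 and 0.00376).

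The level of Ogt relative to Oga in the same library shows how far the pair moved together. In KO AP colon the ratio of Ogt to Oga FPKM was 0.989, 1.69, 1.92 and 2.04, against 0.839, 0.385, 1.24, 1.04 and 0.938 in KO sham colon. The KO AP library with the low ratio, replicate 1, was inside the KO sham range, and the other KO AP libraries were above it. The median ratio was 1.26 in WT AP colon and 1.41 in WT sham colon. In lung the ratio was 1.57 to 2.19 in KO AP, with a median of 1.85, and the medians were 1.46 in KO sham, 1.51 in WT AP and 1.41 in WT sham.

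**Figure D2:**
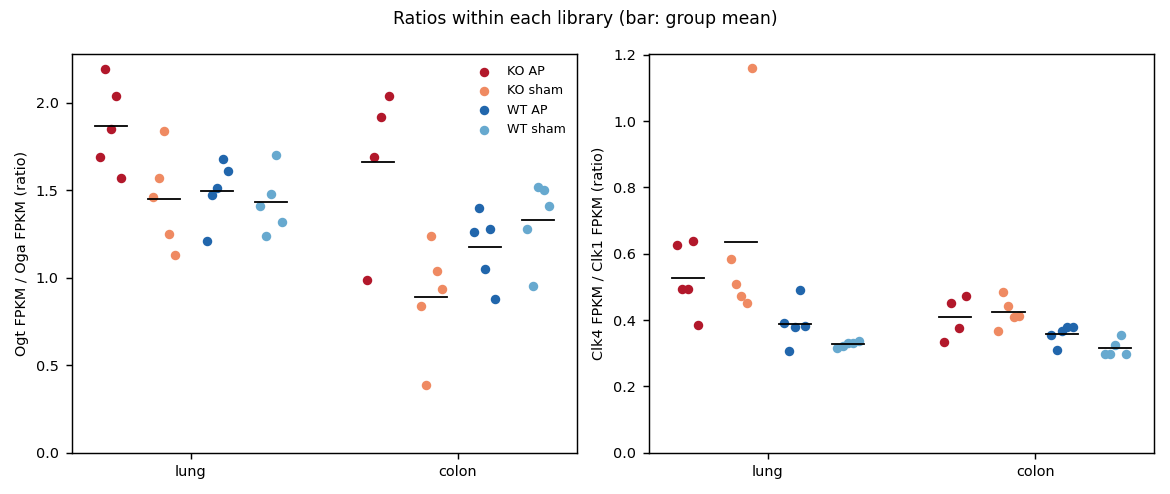
Ratio of Ogt to Oga FPKM (left) and of Clk4 to Clk1 FPKM (right) in every library, with the groups KO AP, KO sham, WT AP and WT sham from left to right in each tissue, a bar at each group mean and the y axes from 0. Of the 4 KO AP colon libraries 3 lie at Ogt to Oga ratios of 1.69 to 2.04, above every KO sham colon library, and 1 KO sham lung library has a Clk4 to Clk1 ratio of 1.16.

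Around the O-GlcNAc pair, the 12 genes of a list of hexosamine pathway enzymes and partners, which make or handle the sugar donor, were not called in colon between AP and sham in KO, and 6 of the 12 had positive differences (median -0.06). In KO against WT lung 5 were higher with AP, among them Nagk, and 1, Gnpda2, was lower. After sham 5 were higher and 3 lower in KO lung. Nagk, the kinase that salvages the free sugar, was higher by 0.70 ± 0.12 with AP and 0.90 ± 0.12 after sham in KO lung (log2, limma adjusted p = 9.54e-05 and 5.12e-06). These counts stand beside 27.6% of all genes called higher and 28.1% called lower in KO lung with AP, and 28.8% and 30.0% after sham.

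Clk1 and Clk4 encode the CLK kinases of this set. In colon Clk1 was at 87.7, 118, 93.8 and 119 FPKM in KO AP mice, against 102.7, 69.8, 59.4, 56.2 and 60.4 FPKM in KO sham mice. KO sham replicate 1, at 102.7 FPKM, was inside the KO AP range and the other KO sham libraries were below it. In WT colon Clk1 was 58.6 to 77.8 FPKM with AP and 59.5 to 79.1 FPKM after sham, below every KO AP library. The KO minus WT difference in AP was 0.62 ± 0.16 (limma adjusted p = 0.0151) and after sham -0.05 ± 0.15.

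Clk4 was at 29.3, 53.1, 35.3 and 56.3 FPKM in KO AP colon, against 37.8, 33.8, 26.3, 23.0 and 24.9 FPKM in KO sham colon. It was 21.6 to 29.4 FPKM in WT AP colon and 17.7 to 26.1 FPKM in WT sham colon, and the lowest KO AP value overlapped the WT AP range. The KO minus WT difference was 0.79 ± 0.19 in AP (limma adjusted p = 0.00904) and 0.36 ± 0.18 after sham (limma adjusted p = 0.127). As TPM, FPKM scaled to the sum of each library, the calls of both kinases in KO against WT AP colon ended, at 0.49 for Clk1 (limma adjusted p = 0.112) and 0.67 for Clk4 (limma adjusted p = 0.0513).

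In lung Clk4 was at 65.2, 92.3, 50.9, 115.5 and 79.1 FPKM in KO AP, against 43.0, 41.3, 43.6, 68.5 and 49.2 FPKM in WT AP, and the groups overlapped through WT replicate 4. KO replicate 3, the lowest of its group, and WT replicate 4 are the libraries that stood apart, and without both the difference was 0.95 (limma adjusted p = 1.68e-05), against 0.67 ± 0.17 with them (limma adjusted p = 0.00238). After sham Clk4 was at 75.6, 74.2, 66.1, 78.0 and 73.0 FPKM in KO and 46.3, 52.6, 48.9, 53.5 and 52.2 FPKM in WT, with no overlap. The difference was 0.52 ± 0.17 (limma adjusted p = 0.0121) and 0.25 on the TPM scale, where the adjusted p was 0.194.

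In lung Clk1 was called in neither genotype comparison as fitted. With the transcript length trend removed it was called higher in KO with AP, at 0.53 (limma adjusted p = 0.0409). It ranged from 103.3 to 206 FPKM in KO AP, with a median of 181, against 110.4 to 139 FPKM in WT AP. After sham it was 129, 146, 139.7, 173 and 63.1 FPKM in KO and 147 to 163 FPKM in WT. KO sham replicate 5, the library at 63.1 FPKM, had Clk4 at 73.0 FPKM like the rest of its group, so its ratio of Clk4 to Clk1 was 1.16, against 0.45 to 0.585 in the other KO sham libraries. Among the lung libraries it also had the highest FPKM sum (800442) and the fewest genes above 0 (21471). Its share of mitochondrially encoded FPKM, 2.49%, was the lowest. The part of these in its values was not tested. In WT lung the ratio was 0.306 to 0.492 with AP and 0.315 to 0.338 after sham. Of 10 other kinases of SR proteins, none was called between AP and sham in KO colon, where 9 had positive differences (median 0.22).

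SR proteins are the substrates of these kinases, and Srsf7 encodes an SR protein that also takes part in mRNA export. In lung it was at 67.2, 86.9, 69.1, 105.1 and 89.8 FPKM in KO AP, against 55.1, 53.4, 42.8, 54.5 and 47.9 FPKM in WT AP, with no overlap. The difference was 0.70 ± 0.12 (limma adjusted p = 0.000124), and 0.50 on the TPM scale (limma adjusted p = 0.009). After sham the KO libraries were at 65.5 to 85.2 FPKM and the WT libraries at 54.3 to 64.2 FPKM, with a difference of 0.34 ± 0.12 (limma adjusted p = 0.0224). That call ended on the TPM scale, at 0.07 (limma adjusted p = 0.708), with the transcript length trend removed, at 0.13 (limma adjusted p = 0.414), and without WT sham replicate 2, KO sham replicate 1 or KO sham replicate 4, at adjusted p of 0.0502, 0.0606 and 0.0541 in that order.

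In colon the Srsf7 values of the genotypes did not overlap within a treatment, while those of the treatments overlapped within each genotype. It was at 81.5, 65.9, 68.5 and 87.5 FPKM in KO AP and 61.6, 76.6, 74.3, 102.2 and 69.0 FPKM in KO sham, against 61.2, 53.7, 62.1, 50.2 and 50.6 FPKM in WT AP and 51.2, 28.5, 44.1, 51.3 and 59.8 FPKM in WT sham. Every KO library was above every WT library of the same treatment. The KO minus WT difference was 0.72 ± 0.17 after sham (limma adjusted p = 0.00502) and 0.44 ± 0.18 in AP (limma adjusted p = 0.1, and 0.0371 without the WT sham library that stood apart). As TPM the sham difference was 0.54 (limma adjusted p = 0.0969), which ended the call.

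Srsf5 was the most abundant of the 10 genes in FPKM, and no comparison called it. In colon it was at 198, 308, 233 and 231 FPKM in KO AP mice, against 138 to 188 FPKM in KO sham mice, without overlap, and at 175 to 232 FPKM in WT AP and 87.5 to 213 FPKM in WT sham mice. In lung the ranges were 245 to 445 FPKM in KO AP, 146 to 311 in KO sham, 268 to 405 in WT AP and 247 to 335 in WT sham. The lowest lung value again came from KO sham replicate 5, the library with low Clk1.

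The other SR proteins and the Tra2 proteins, 10 of 11 tested, were not called between AP and sham in either tissue. In KO against WT colon after sham 7 of the 10 were higher, with a median difference of 0.52, and with AP 2 of the 10 were, with a median of 0.25. Srsf2 averaged 268 FPKM in KO sham colon, against 137 FPKM in WT sham colon, and Srsf3 119 FPKM, against 59.7 FPKM. In KO against WT lung with AP 7 were higher and 1 lower, Srsf11 (named after its value was seen), with a median difference of 0.57. Beside these counts stand 16.0% of all colon genes called higher after sham, 7.37% with AP and 27.6% of all lung genes called higher with AP.

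Luc7l3 encodes a protein of the U1 snRNP that takes part in recognition of the 5′ splice site. In colon it was at 37.1, 37.4, 43.5 and 39.3 FPKM in KO AP mice, against 28.1, 27.0, 28.1, 30.9 and 27.5 FPKM in WT AP mice, with no overlap. The KO sham libraries were at 29.0 to 36.4 FPKM and the WT sham libraries at 27.3 to 35.5 FPKM, so the KO AP libraries lay above all other colon libraries. The KO minus WT difference in AP was 0.46 ± 0.10 (limma adjusted p = 0.00531), and 0.34 on the TPM scale (limma adjusted p = 0.124), which ended the call. After sham it was -0.01 ± 0.09, and in lung no comparison as fitted called Luc7l3. The alternatives differed in direction there. With the transcript length trend removed it was higher in KO lung with AP, at 0.40 (limma adjusted p = 0.0109). As TPM it was lower in KO lung after sham, at -0.45 (limma adjusted p = 0.0239).

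Matr3 encodes matrin 3, an RNA- and DNA-binding protein of the nuclear matrix. In colon it was at 21.8, 26.4, 21.0 and 23.9 FPKM in KO AP mice, against 14.5, 14.8, 14.8, 14.6 and 15.1 FPKM in KO sham mice, and the 5 sham libraries were within 1 FPKM of each other. WT AP mice had 15.5, 16.7, 16.6, 15.8 and 14.6 FPKM and WT sham mice 17.5, 15.0, 19.1, 16.0 and 19.8 FPKM, so the KO AP libraries lay above every other one. The AP minus sham difference was 0.62 ± 0.10 in KO and -0.13 ± 0.09 in WT, and the difference between these was 0.75 ± 0.13 (limma adjusted p = 0.0808). The KO minus WT difference in AP was 0.52 ± 0.10 (limma adjusted p = 0.00223), and 0.41 on the TPM scale (limma adjusted p = 0.126), which ended the call. After sham it was -0.22 ± 0.09 (limma adjusted p = 0.0738), called at -0.27 (limma adjusted p = 0.0274) without the WT sham library that stood apart and at -0.31 on the upper quartile scale (limma adjusted p = 0.0247), and 0.07 (limma adjusted p = 0.61) with the length trend removed.

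In lung the KO minus WT difference of Matr3 was negative after sham, as it was in colon. In AP it was -0.24 ± 0.13 in lung (limma adjusted p = 0.132), against 0.52 ± 0.10 in colon. After sham Matr3 was at 21.6, 20.6, 21.3, 20.4 and 22.5 FPKM in KO lung, against 25.8, 34.5, 25.7, 30.0 and 32.0 FPKM in WT lung, with no overlap. The difference was -0.45 ± 0.13 (limma adjusted p = 0.00742), and turned to 0.04 (limma adjusted p = 0.81) with the transcript length trend removed. Across the genes tested, longer transcripts had lower KO minus WT differences in sham lung (Spearman's rho -0.435 over 15879 genes, which are not independent replicates), and Matr3 has an annotated transcript of 6262 bases. In AP the KO libraries were at 17.0, 20.6, 30.1, 30.5 and 19.4 FPKM and the WT libraries at 25.0 to 28.3 FPKM, with 3 KO libraries below and 2 above the WT range.

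Son encodes a scaffold protein of nuclear speckles, the bodies in which splicing factors are stored. In lung after sham it was at 68.2, 92.5, 87.1, 118 and 53.1 FPKM in KO, against 98.9, 115.1, 119.5, 123 and 107 FPKM in WT, overlapping through KO replicate 4. The difference was -0.47 ± 0.19 (limma adjusted p = 0.0357). Omitting any of WT sham replicates 2, 3 and 4 or KO sham replicates 1 and 5 ended the call, with adjusted p up to 0.114, as did no filter on low values and a fit of the 2 groups alone. With the transcript length trend removed the difference turned to 0.12 (limma adjusted p = 0.541), and the longest annotated Son transcript has 8731 bases. In colon Son was at 37.6 to 53.3 FPKM in KO AP, 26.5 to 41.6 in KO sham, 37.3 to 51.4 in WT AP and 24.7 to 51.7 in WT sham. In colon after sham its KO minus WT difference was -0.38 ± 0.18 (limma adjusted p = 0.109), and -0.56 (limma adjusted p = 0.00595) without the WT sham library that stood apart, the one at 24.7 FPKM.

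Rbm39, which encodes a splicing factor related to U2AF65, was called in no comparison as fitted. It was at 100.2 to 116 FPKM in KO AP colon, above the 63.5 to 88.8 FPKM of KO sham colon, while WT AP colon had 84.8 to 101 FPKM and WT sham colon 76.2 to 106 FPKM. Its KO minus WT difference in colon after sham was -0.29 ± 0.12 (limma adjusted p = 0.0592). It passed the threshold at -0.38 (limma adjusted p = 0.012) without the WT sham library that stood apart. It did so too at -0.48 as TPM, -0.39 on the upper quartile scale and -0.42 with the transcript length trend removed (limma adjusted p = 0.0359, 0.0215 and 0.0159 in that order). In lung the medians were 185 FPKM in KO AP, 142 in KO sham, 159.9 in WT AP and 170 in WT sham. In lung after sham the KO minus WT difference was -0.25 ± 0.14 (limma adjusted p = 0.138), and passed the threshold at -0.53 as TPM (limma adjusted p = 0.012) and at -0.36 with the length trend removed (limma adjusted p = 0.0468).

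**Figure D3:**
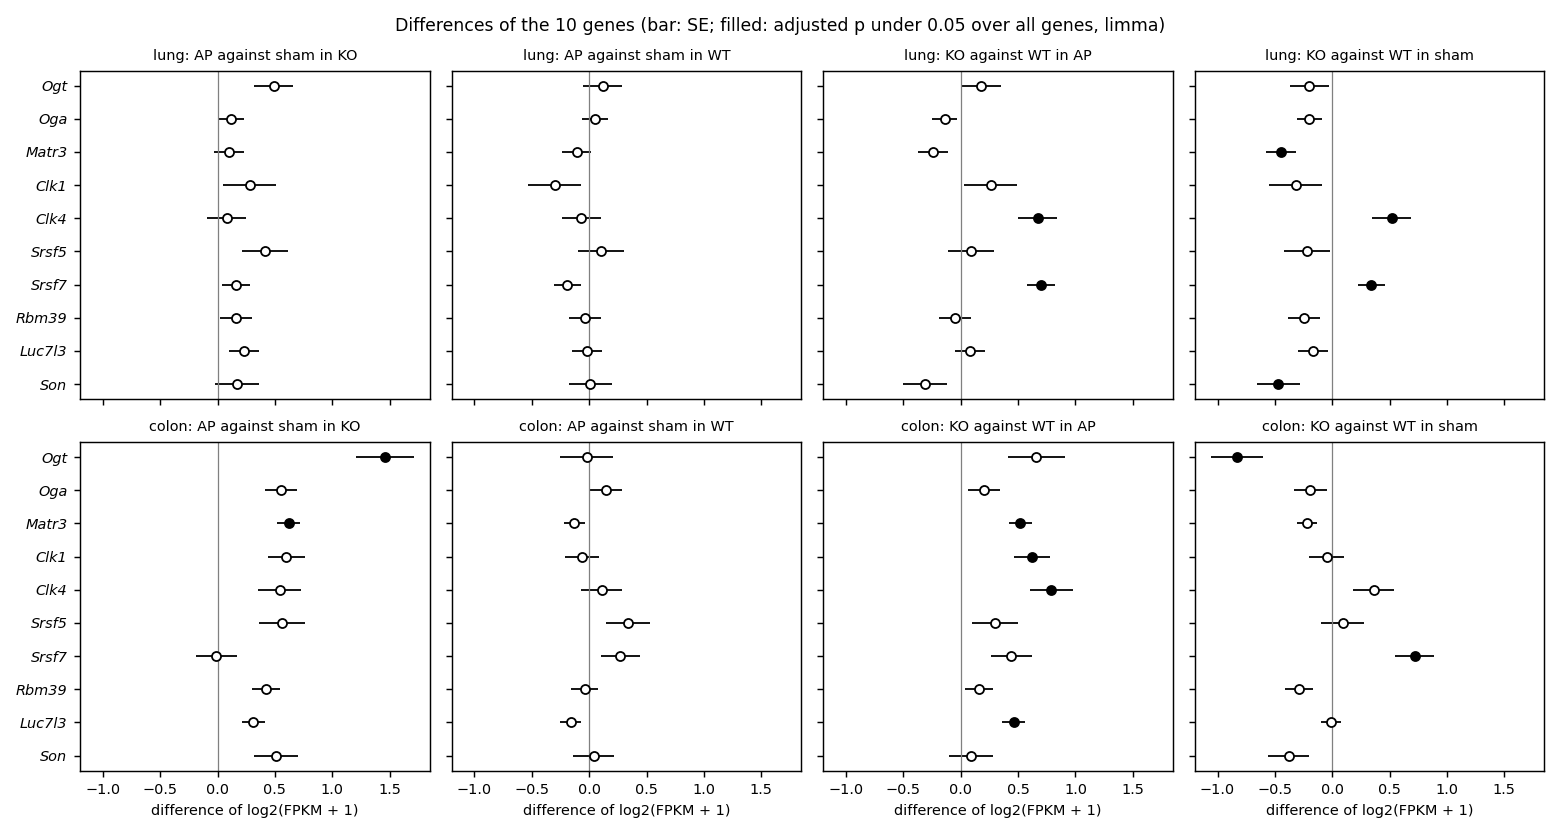
Difference of log2(FPKM + 1) with its SE for each of the 10 genes, AP minus sham in KO and in WT and KO minus WT in AP and after sham, lung above and colon below, with filled points where the limma adjusted p over all genes was under 0.05. In KO colon 9 of the 10 AP minus sham differences are positive, with Ogt at 1.46 and Matr3 at 0.62 filled.

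Counted over the set, 2 of the 10 genes were called in colon between AP and sham in KO, both higher, beside 6 of 15001 genes in all, 0.0400%, or 0.0200% in each direction. The choice of the genes used such values, so nothing is read from that count. Ogt was just inside the threshold (limma adjusted p = 0.0498), with Matr3 at 0.0287, and Oga and Clk1 were the nearest outside it, at 0.0963 and 0.0997. The groups did not overlap for 6 of the 10, against 2.87% of all genes. The median difference of the set was 0.55, against -0.03 for all genes tested. The overlap count and the median come from the same values, so nothing is read from them either. In WT colon 0 of the 10 were called by limma, 0 had an unadjusted p under 0.05, and no gene of the 15001 was called. For the difference of the AP response between KO and WT colon 0 were called, 5 had an unadjusted p under 0.05 beside 2821 of the 15001 genes, and no gene was called.

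Those colon calls ended under other estimates of the spread and when single libraries were left out. With the fit of the KO colon groups alone neither Ogt nor Matr3 was called (limma adjusted p = 0.443 for both), and with a variance of its own for each group both were at 0.323. Leaving out any 1 of the 19 colon libraries in turn ended the call of Ogt in 16 cases and of Matr3 in 10, with adjusted p up to 0.141 and 0.137. WT libraries, which do not enter the KO means, were among these cases. In the WT cases the limma adjusted p was 0.0529 to 0.0765 for Ogt and 0.0509 to 0.0579 for Matr3. The direction stayed positive each time. With KO sham replicate 1 left out, 6 of the 10 were called, and with KO AP replicate 1 left out, 4 were. Over the 19 omissions the share of all genes called ran from 0 to 9.19%, against 0.0400% with all libraries.

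For KO against WT in colon 4 of the 10 were called higher and 0 lower in AP, beside 18.3% of all genes, 7.37% higher and 10.9% lower. After sham 1 was higher and 1 lower, beside 31.4% of all genes, 16.0% higher and 15.4% lower. In lung 2 were called higher and 0 lower with AP, beside 27.6% and 28.1% of all genes. After sham 2 were higher and 2 lower, beside 28.8% and 30.0%. The scale changed these splits. As TPM 0 were higher and 6 lower in KO against WT lung after sham, the 6 being Ogt, Oga, Matr3, Rbm39, Luc7l3 and Son, and 2 were higher and 2 lower with AP, where Oga and Matr3 joined as lower. As TPM in colon 0 were called in AP, and after sham 0 were higher and 2 lower, Ogt and Rbm39. Between AP and sham limma called 0 of the 10 in lung in either genotype, beside 0.0125% of genes in KO and 0.0814% in WT. At an unadjusted p under 0.05 there was 1 in KO, Ogt, beside 2234 of 15978 genes, and 0 in WT, beside 1066. In KO lung all 10 differences were positive, with a median of 0.17. For the difference of responses in lung 0 were called and 0 had an unadjusted p under 0.05, beside 1384 of 15978 genes.

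Other measures moved with the groups, first with AP against sham in KO colon. The share of FPKM from mitochondrially encoded genes was 10.6, 12.9, 19.1 and 17.8% in KO AP colon, against 13.5, 7.53, 10.3, 6.90 and 4.62% in KO sham colon. Of 6 T and NK cell markers, 1 had a mean of at least 1 FPKM in KO AP colon, where they summed to 2.5 to 5.2 FPKM, and 6 had in KO sham colon, where they summed to 4.1 to 79.6 FPKM. These ranges overlapped, and the median sums were 3.0 FPKM in KO AP and 5.5 FPKM in KO sham colon. The 4 erythroid markers summed to 4.7 to 22.1 FPKM in KO AP and 39.4 to 83.7 FPKM in KO sham colon, with 3 of 4 at a mean of at least 1 FPKM in both. Longer transcripts had higher AP minus sham differences in KO colon (Spearman's rho 0.240 across 14937 genes). The part of these in the values of the 10 genes was not tested, except for length: with its trend removed, Ogt was at 1.41 and Matr3 at 0.54. Markers of cell types also differed where the genotypes were compared, beside Clk4 and Srsf7 in lung and Matr3, Clk1, Clk4 and Luc7l3 in colon. In lung with AP the 5 fibroblast markers summed to 106.5 to 148.1 FPKM in KO and 264.2 to 357.8 FPKM in WT, and the 4 epithelial markers to 510.5 to 908.9 FPKM in KO and 245.9 to 291.8 FPKM in WT. After sham the fibroblast sums were 141.1 to 207.8 FPKM in KO and 281.7 to 379.8 FPKM in WT, and the epithelial ones 362.8 to 1322.6 FPKM in KO and 242.8 to 292.4 FPKM in WT lung. All these markers had means of at least 1 FPKM in all 4 lung groups. In colon with AP the T and NK cell markers summed to 2.5 to 5.2 FPKM in KO and 14.9 to 124.9 FPKM in WT, where 6 of 6 had a mean of at least 1 FPKM. The 6 macrophage markers summed to 40.8 to 95.2 FPKM in KO and 117.0 to 338.1 FPKM in WT colon with AP, all 6 at such means in both. After sham, the comparison that called Ogt and Srsf7 in colon, the 5 smooth muscle markers summed to 1591.2 to 4111.5 FPKM in KO and 747.3 to 1082.0 FPKM in WT. The part of these in the genotype differences was not tested. In whole tissue, fewer cells of a type and less RNA per cell cannot be told apart.

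Lists of related genes show what surrounded the 10 in KO colon. Of 15 nuclear speckle proteins 14 had positive AP minus sham differences (median 0.33), with Pnisr at 31.1 FPKM in KO AP and 17.6 FPKM in KO sham on average, and none was called. Of 23 core spliceosome genes 2 had positive differences (median -0.45) and none was called. The Sm protein genes Snrpf and Snrpb were at -1.16 ± 0.23 and -0.76 ± 0.15 (limma adjusted p = 0.0652 each), and Sf3b1, of the U2 snRNP, at 0.43 ± 0.11 (limma adjusted p = 0.0914). Of 14 genes of nonsense-mediated decay and the exon junction complex 7 were positive (median 0.00). Malat1, a long RNA kept in the nucleus, averaged 27.1 FPKM in KO AP and 20.8 FPKM in KO sham colon, a difference of 0.43 ± 0.30.

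**Figure D4:**
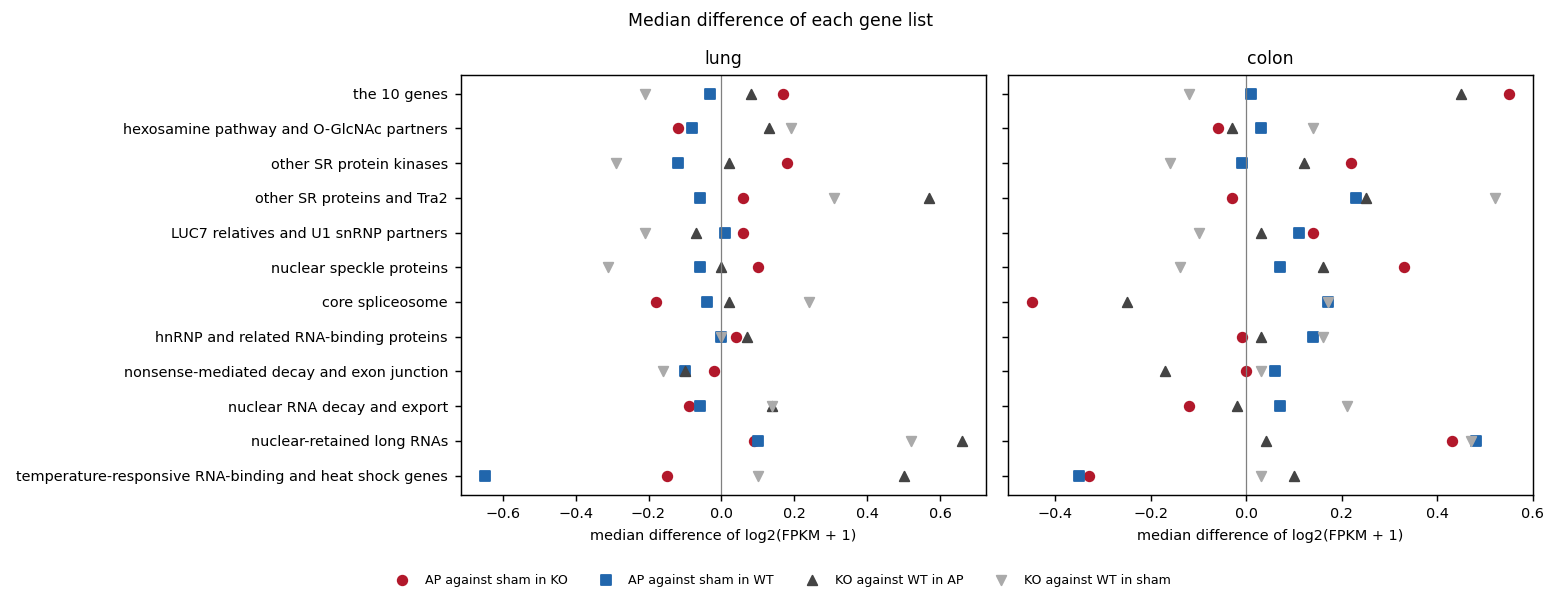
Median difference of log2(FPKM + 1) of the 10 genes and of 11 lists of related genes, in lung (left) and colon (right), for AP minus sham in KO (circles) and WT (squares) and KO minus WT in AP (upward triangles) and after sham (downward triangles). In colon the AP minus sham medians in KO run from 0.55 for the 10 genes to -0.45 for the core spliceosome. The 10 genes were chosen with such values known, so nothing is read from their place.

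Inside groups the 10 genes varied together, when the value of each library was taken as its deviation from its group mean. The median Pearson correlation over the 45 pairs was 0.63 in lung, over 20 libraries, and 0.43 in colon, over 19, with 41 and 43 pairs above 0. In lung Rbm39 and Luc7l3 were closest, at 0.96, followed by Rbm39 and Son at 0.91. Matr3 was at -0.30 to 0.20 with the other 9. In colon Clk1 and Clk4 were closest, at 0.85, and Srsf7 was at -0.07 to 0.39 with the other 9. Ogt and Oga were at 0.65 in lung and 0.09 in colon. The points share library, depth and composition, so these are descriptions.

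**Figure D5:**
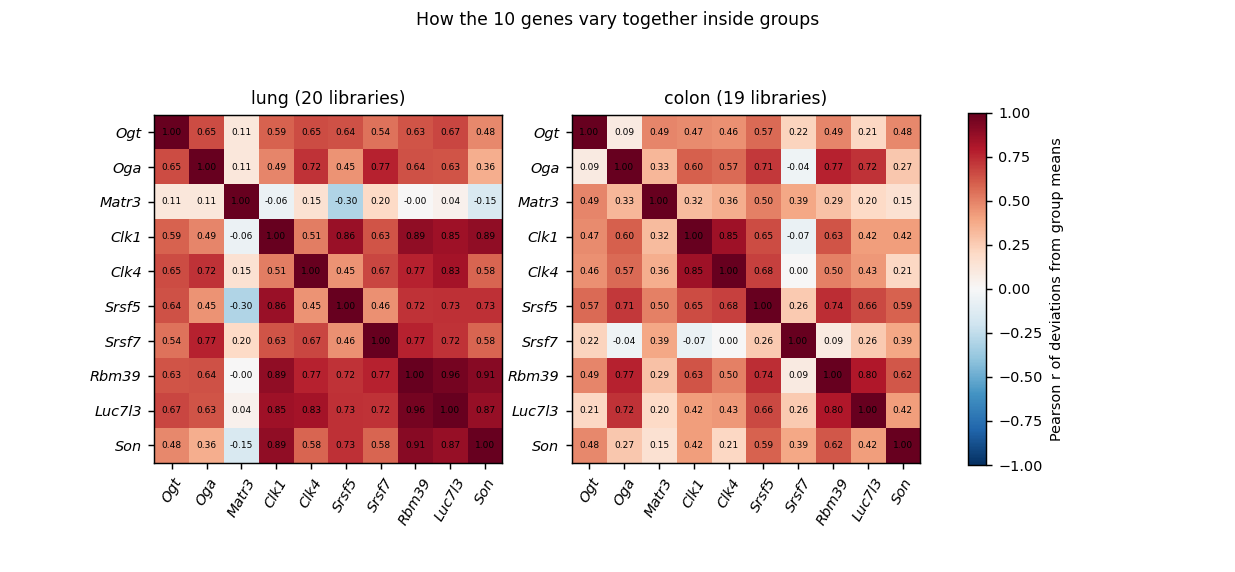
Pearson correlation of deviations from the group means for each pair of the 10 genes, over 20 lung libraries (left) and 19 colon libraries (right), on a color scale from -1 to 1 with the value in each cell. Most cells are positive, while the values of Matr3 in lung run from -0.30 to 0.20 and those of Srsf7 in colon from -0.07 to 0.39.

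Some libraries lay above or below their group mean for most of the 10 genes. How much of the correlations came from them was not tested. In lung KO AP replicate 4 was above its group mean for 10 of the 10 genes and replicate 1 for 0, with mean deviations of 0.32 and -0.30 on the log2 scale. KO sham replicate 5 was above it for 1, with a mean deviation of -0.34. In colon WT sham replicate 2 was above it for 0, at -0.45, and replicate 1 for 10, at 0.17.

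Compared with each other in FPKM, which is per length, the 10 genes kept much the same order in both tissues. In WT sham lung the medians ran from Srsf5 (314 FPKM) through Rbm39 (170), Clk1 (154), Son (115.1), Srsf7 (57.1), Ogt (53.2), Clk4 (52.2), Luc7l3 (45.4) and Oga (36.9) to Matr3 (30.0). The ranges of Rbm39 and Clk1 overlapped, as did those of Srsf7 and Ogt, of Ogt and Clk4 and of Clk4 and Luc7l3. In WT sham colon the order was Srsf5 (166 FPKM), Rbm39 (103), Clk1 (73.2), Srsf7 (51.2), Son (45.5), Ogt (36.1), Luc7l3 (31.4), Oga (25.1), Clk4 (22.0) and Matr3 (17.5). There the ranges of every pair of neighbours in the order overlapped. The tissues were normalized in separate tables and were not tested against each other.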

How the data were processed

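Lung and colon RNA of 39 libraries was sequenced. Per the submitters' processing notes the authors worked on mm39 and used StringTie 1.3.3b and HISAT2 2.1.0, and the deposited values are FPKM, 1 per gene and library, in 1 table per tissue. The labels give neither the roles of these tools nor the annotation or filters. No protein or mm39 sequence was used, and Oga was matched through its older symbol Mgea5.

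The fit in each tissue took the genes that reached 1 FPKM in 4 or more libraries, on the scale of log2(FPKM + 1), which understates changes of low genes. limma 3.58.1 in R 4.3.3 fitted 1 mean per group over all libraries of a tissue, with a variance trend, and p-values were adjusted by Benjamini-Hochberg over all genes, at a threshold of 0.05. The procedure was tested on simulated data. Read totals were recovered from steps of FPKM in single-transcript genes, where 98.4 to 99.0% of values under 50 reads were whole within 0.01. No count test was run, since such steps were examined in single-transcript genes and not in the others.

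All 10 genes and Cd177 are named, and of each list up to 3 genes with the lowest p in a comparison. Genes most like Ogt and Clk1 are those with the highest smaller correlation of both tissues. The 10 genes, the lists and the tests were chosen with earlier results of these data known. The other figures and values used Python 3.11.15. The alternatives tried were another pseudocount, no filter, TPM and upper quartile scales, the 2 groups alone, a variance per group, a transcript length trend, the replicate number as a block, and each library left out. One more, without the libraries that stood apart from their group, was added after seeing the data.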

Additional observations from a re-analysis of the deposited data

Results flagged for a closer look

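Each of the 80 sets of values (10 genes in 8 groups) was searched for a library far from the others of its group by Dixon's test, and 8 were found, where chance gives about 1 in 20. Ogt was at 19.1 FPKM in replicate 2 of colon WT sham, against 35.4 to 41.8 FPKM in the other libraries, and at 31.7 FPKM in replicate 1 of colon KO AP, against 58.5 to 64.0 FPKM. Son was at 24.7 FPKM in replicate 2 of colon WT sham, against 44.5 to 51.7 FPKM. Rbm39 was at 116 FPKM in replicate 4 of colon KO AP, against 100.2 to 102.3 FPKM, and Srsf5 at 232 FPKM in replicate 4 of colon WT AP, against 175 to 190.5 FPKM. In lung Srsf5 was at 146 FPKM in replicate 5 of KO sham, against 282 to 311 FPKM. Oga was at 38.5 FPKM in replicate 1 of lung KO sham, against 30.1 to 32.2 FPKM, and at 40.2 FPKM in replicate 5 of lung WT sham, against 36.5 to 37.5 FPKM.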

How the results depend on the processing

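Of the 10 genes, 2 were called in colon between AP and sham in KO. The count was 1 with no filter on low values and 1 on the upper quartile scale, and 0 on the TPM scale, with only the 2 groups compared, with a variance per group and with the replicate number as a block. For KO against WT the counts in colon were 0 in AP on the TPM scale (4 in the fit as reported), and after sham 4 on the upper quartile scale and 5 without the library that stood apart (2 as reported), an alternative chosen after seeing the data. In lung they were 4 in AP on the TPM scale and 5 with the transcript length trend removed (2 as reported), and after sham 6 as TPM, all lower, and 2 with that trend removed (4 as reported, 2 of them higher). Removing the trend turned Matr3 to 0.04 and Son to 0.12 in KO against WT lung after sham. The TPM scale moved the median of all genes by -0.182 and -0.256 in KO against WT lung with AP and after sham, and by -0.128 and -0.151 in colon. With each library left out in turn the counts ran from 0 to 6 for AP against sham in KO colon, 4 to 6 for KO against WT colon in AP, 2 to 5 after sham, 2 to 3 for KO against WT lung in AP and 2 to 4 after sham, and from 0 to 4 for the difference of AP responses in colon. The shares of all genes called were 0 to 9.19%, 11.9 to 22.0% and 23.1 to 35.1% for these colon comparisons in that order. They were 50.3 to 59.7% and 53.8 to 61.4% in lung, and 0 to 7.83% for the difference in colon. The counts were 0 in every omission for AP against sham in WT of both tissues, in KO lung and for the difference of responses in lung. Where the cause of these moves is not given by the setting itself, it was not tested. Among same-numbered libraries of different groups in a tissue, 6 of 30 lung pairs and 7 of 27 colon pairs had correlated deviations above 0.1. The correlations ran from -0.32 to 0.386 in lung and from -0.524 to 0.465 in colon. Differently numbered libraries, and lung with colon, were not compared, so whether the replicate numbers pair the libraries cannot be told. The replicate block left the counts of the other 9 comparisons at their reported values. None of the 10 genes fell below 11.3 FPKM in any library. Read totals were higher in KO than in WT, without overlap in lung and nearly so in colon. Depth and genotype therefore cannot be told apart, and the part of depth was not tested.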

Other observations

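Genes whose deviations from the group means were most like those of Ogt, among 12250 genes in both tissues, were Usp35, a deubiquitinase gene (Pearson r 0.75 over 20 lung libraries and 0.78 over 19 colon libraries), Tia1, an RNA-binding protein that aids recognition of weak 5′ splice sites (0.74 and 0.75), and Tbc1d19 (0.72 and 0.72). For Clk1 they were Ankzf1 (0.86 and 0.95), Zmym5 (0.84 and 0.86) and Ubp1 (0.90 and 0.83). These are descriptions of libraries that share depth and composition. Tia1 was also higher in KO than in WT colon with AP, at 13.1 FPKM against 9.33 FPKM on average (difference 0.45 ± 0.15, limma adjusted p = 0.0459).

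Malat1, a nuclear long RNA outside the set, was lower in KO than in WT lung, with means of 48.5 FPKM in KO AP against 142 FPKM in WT AP, and of 45.3 FPKM in KO sham against 138 FPKM in WT sham. The differences were -1.57 ± 0.21 and -1.60 ± 0.21 (limma adjusted p = 6.68e-06 and 3.73e-06). In colon the KO sham mean was 20.8 FPKM, against 43.2 FPKM in WT sham, a difference of -0.99 ± 0.29 (limma adjusted p = 0.0147). WT sham replicate 2, at 16.5 FPKM, lay inside the KO sham range of 12.6 to 33.7 FPKM. With AP the colon means were 27.1 FPKM in KO and 37.6 FPKM in WT, and Malat1 was not called. Beside these calls, 28.1% of all lung genes were called lower with AP and 30.0% after sham. In colon after sham 15.4% were.

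Neat1, the long RNA of paraspeckles, ranged from 341 to 551 FPKM in KO AP lung and from 233 to 479 FPKM in WT AP lung. It was called higher in KO than in WT lung with AP, beside 27.6% of all genes, and was not called after sham. The ranges overlapped through WT AP replicate 4 at 479 FPKM, a library that stood apart, and the other WT AP libraries reached 281 FPKM.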
